A study of Mus musculus with 4 samples.

Results

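The sarcomeric myosin heavy chain genes encode the motor subunits of the thick filament in striated muscle. The members were Myh1, Myh2, Myh3, Myh4, Myh6, Myh7, Myh7b, Myh8 and Myh13, chosen by a rule that uses names and no measured value. The rule was set with earlier results of these data known. Of the 9 members, 9 were found among the 1000 genes of the deposited table. The samples were frozen tibialis anterior muscle, a leg muscle, of Dmd Dup2 mice. These mice carry a duplication of exon 2 in the dystrophin gene. One group had received scAAV9.U7-ACCA, an adeno-associated virus that delivers a small nuclear RNA for exon skipping, and the other was an untreated control of the same genotype. The labels give neither the age nor the number of the animals, nor whether animals were pooled. From each group there was 1 library of mRNA (total RNA) and 1 of ribosome footprints, the mRNA fragments that ribosomes cover. Every difference therefore compares single libraries, has no replicate check and carries no p-value.

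Each heavy chain has a head that binds actin and splits ATP and a tail that packs into the thick filament. The isoform a fibre makes sets much of its speed of shortening. Adult fast fibres use Myh4 (type IIb), Myh1 (type IIx) and Myh2 (type IIa), slow fibres use Myh7, and the mouse tibialis anterior is mainly a fast muscle. Myh3 (embryonic) and Myh8 (neonatal) are made during development and again in regenerating fibres, which are frequent in dystrophic muscle. Myh6 is the alpha chain of heart muscle, Myh13 belongs to eye and larynx muscles, and Myh7b is a relative of Myh7 found in heart and some specialised fibres.

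In the RefSeq annotation 6 of the members lie next to each other on chromosome 11 in the order Myh3, Myh2, Myh1, Myh4, Myh8 and Myh13, Myh6 and Myh7 are neighbours on chromosome 14, and Myh7b is on chromosome 2. The 250 bases before the annotated start of the 4 cluster genes that share sequence there are shown, because the mRNA shares of neighbouring members differed between the libraries in unlike ways. They are RefSeq sequences of build GRCm38.p6, all from the plus strand, at chr11:67237562-67237811 for Myh4, chr11:67199852-67200101 for Myh1, chr11:67170777-67171026 for Myh2 and chr11:67276874-67277123 for Myh8. Capitals mark runs of 12 or more bases that also occur in another member's window.
Myh4: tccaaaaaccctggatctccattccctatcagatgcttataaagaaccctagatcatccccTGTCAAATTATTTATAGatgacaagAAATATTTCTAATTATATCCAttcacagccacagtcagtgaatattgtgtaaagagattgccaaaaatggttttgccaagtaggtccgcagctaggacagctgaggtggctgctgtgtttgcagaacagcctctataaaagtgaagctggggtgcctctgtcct
Myh1: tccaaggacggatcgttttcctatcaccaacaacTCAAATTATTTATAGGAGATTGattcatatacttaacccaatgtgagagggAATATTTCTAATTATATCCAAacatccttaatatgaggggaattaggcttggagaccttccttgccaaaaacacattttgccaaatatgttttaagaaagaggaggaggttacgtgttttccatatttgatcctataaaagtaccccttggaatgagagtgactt
Myh2: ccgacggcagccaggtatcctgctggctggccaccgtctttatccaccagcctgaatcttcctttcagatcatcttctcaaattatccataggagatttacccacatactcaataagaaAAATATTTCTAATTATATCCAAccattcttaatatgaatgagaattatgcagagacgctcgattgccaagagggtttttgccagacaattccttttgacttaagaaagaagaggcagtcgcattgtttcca
Myh8: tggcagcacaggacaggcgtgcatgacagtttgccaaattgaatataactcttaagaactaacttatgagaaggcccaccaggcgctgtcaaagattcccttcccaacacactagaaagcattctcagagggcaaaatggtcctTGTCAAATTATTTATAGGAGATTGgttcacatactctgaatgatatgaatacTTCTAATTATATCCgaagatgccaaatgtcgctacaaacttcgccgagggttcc

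The run TTCTAATTATATCC was common to Myh1, Myh2, Myh4 and Myh8. On either strand it occurred in 4 of 32536 such windows of the RefSeq table, which are those of these 4 genes. The run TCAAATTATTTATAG was shared by Myh1, Myh4 and Myh8 and by no other of the windows. A match to the MEF2 motif, named for a family of muscle transcription factors, lay inside a shared run in Myh1, Myh4 and Myh8. It was found in 1.68% of all windows on either strand. The E-box CANNTG, which myogenic factors such as MyoD bind, was present in 7 of the 9 members' windows and in 66.2% of all windows. The windows of Myh3, Myh13, Myh6, Myh7 and Myh7b held no run shared with another member. These matches describe letters only, and binding was not measured.

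The listed genes held 4248818 reads in treated mRNA, 125236 in untreated mRNA, 1664122 in treated footprints and 3349015 in untreated footprints, so the untreated mRNA library was the shallowest. The table holds genes down to 14 untreated mRNA reads, and genes with fewer are not analysed here. Skeletal muscle markers were present, with 9 of 11 listed, and none of 8 heart muscle markers was among the listed genes. Summed levels of the 5 listed of 12 macrophage markers were 291 and 1327 CPM, scaled between libraries, in treated and untreated mRNA and 833 and 1771 in footprints. At the depth of the untreated library the treated mRNA reads of C1qa, C1qb, Ctss and Lyz1 would lie below 14. These genes are thus in the table through the untreated library, where they were high, and the sums describe the listed genes only. Summed levels of the 8 listed of 9 fibroblast markers were 3900 and 17895 in treated and untreated mRNA and 6206 and 29062 in footprints. The collagens Col1a1, Col1a2, Col3a1 and Col5a2 were 5.73-fold to 18.5-fold lower in treated mRNA, and Sparc was 1.93-fold lower (1.41 to 2.58). Dcn, which encodes the matrix protein decorin, was 3.02-fold higher (2.35 to 3.95). Fn1 and Lum had ratios of 0.997 (0.762 to 1.33) and 1.16 (0.764 to 1.84). The part of these marker genes in the heavy chain results was not tested. In such bulk samples, fewer cells of a type and less RNA per cell cannot be told apart.

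The first question was how much of the listed genes' mRNA and footprint reads went to the family as a whole. The 9 genes took 19.03% of the listed reads in treated mRNA and 28.0% in untreated mRNA (95% exact binomial intervals 18.997 to 19.07 and 27.7 to 28.2). In footprints they took 32.4% in treated and 32.9% in untreated muscle (32.3 to 32.4 and 32.9 to 33.0). The authors' normalized values of the listed genes summed to 789371 in treated and 924297 in untreated mRNA. In footprints these sums were 786295 and 922727. Read as CPM, the listed genes cover a smaller part of the treated libraries. The shares are thus of listed reads and not of whole libraries. Ttn, which encodes titin, the spring and ruler of the thick filament, held 26.5% of treated and 8.67% of untreated mRNA reads. Without Ttn in the total, the family's mRNA shares were 25.9% in treated and 30.6% in untreated muscle. After TMM scaling, which sets libraries to a common level from the bulk of the genes, the summed family ratio of treated over untreated was 1.07 in mRNA (1.06 to 1.08) and 1.011 in footprints (1.008 to 1.015). The summed mRNA ratio was 0.680 with listed totals and 0.581 with the authors' own constants. The summed footprint ratio was 0.983 and 0.838 under the same scalings. The direction of both sums thus depended on the scaling. All intervals cover counting error only.

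Shares within the family do not depend on scaling between libraries. They count reads and were not corrected for transcript length. Myh4 supplied 46.2% of family mRNA reads in treated muscle (46.1 to 46.3) and 32.4% in untreated muscle (31.9 to 32.9), from 373461 and 11352 reads. The odds that a family read was Myh4 were, in treated mRNA, 1.79 times those in untreated mRNA (1.75 to 1.83). Myh1 supplied 17.2% in treated (17.2 to 17.3) and 26.6% in untreated muscle (26.1 to 27.04), from 139411 and 9317 reads. Treated muscle thus had 2.68 Myh4 reads for each Myh1 read and untreated muscle 1.22, a 2.20-fold difference (2.14 to 2.26). Myh2, the type IIa gene, gave 14.0% of treated and 15.2% of untreated family mRNA reads, from 113321 and 5317 reads. The adult fast genes Myh4, Myh1 and Myh2 together made up 77.4% in treated and 74.1% in untreated mRNA, and this sum differed less than the shares of Myh4 and Myh1.

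**Figure D1:**
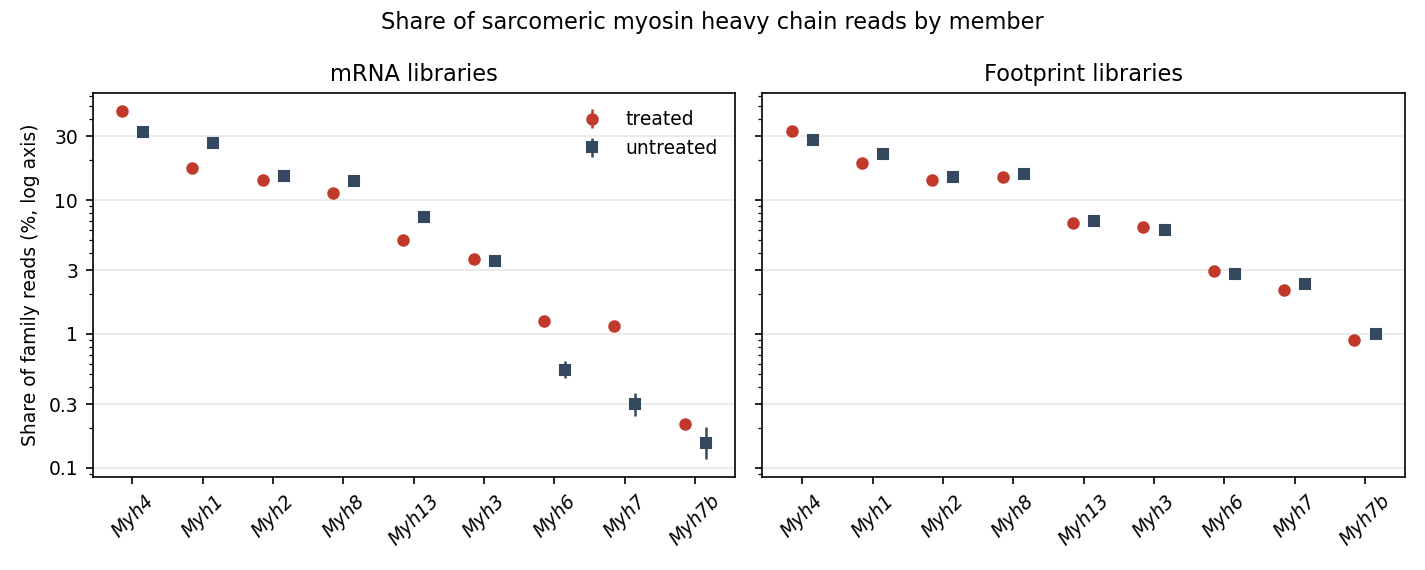
Share of family reads held by each heavy chain gene, on a log axis in percent, in mRNA (left) and footprint libraries (right), with treated as circles, untreated as squares and 95% exact binomial intervals as bars. In mRNA the treated circle of Myh4 lies above its untreated square (46.2% and 32.4%) and that of Myh1 below (17.2% and 26.6%), while in footprints the pairs lie close together.

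Within the whole family, the neonatal gene held a smaller share in treated mRNA and the embryonic gene a similar one. Myh8, the neonatal gene, had 11.3% of family mRNA reads in treated and 14.0% in untreated muscle, from 91577 and 4891 reads. Myh3, the embryonic gene, had 3.62% in treated (3.58 to 3.66) and 3.50% in untreated muscle (3.31 to 3.69), from 29282 and 1226 reads, and these intervals overlap. Myh13 had 5.03% in treated and 7.43% in untreated muscle, from 40655 and 2605 reads. Myh13, known from eye and larynx muscles, had more mRNA reads than the embryonic Myh3 in both conditions. The sources used here do not say how reads that match several heavy chain genes were counted, and its part in these values was not tested.

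The slow and cardiac genes were a small part of the family's mRNA reads, and larger in treated muscle. Myh7, the slow fibre gene, had 1.14% in treated (1.12 to 1.16) and 0.2995% in untreated muscle (0.245 to 0.362), from 9217 and 105 reads. Myh6 had 1.25% in treated (1.23 to 1.27) and 0.542% in untreated muscle (0.468 to 0.625), from 10107 and 190 reads. Myh7b had 0.212% in treated (0.202 to 0.222) and 0.154% in untreated muscle (0.116 to 0.201), from 1711 and 54 reads. Together the 3 genes took 2.60% of treated and 0.996% of untreated family mRNA reads. The few untreated reads of Myh7 and Myh7b leave their shares the least precise.

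Because the large share of Myh4 lowers every other share, the shares were also taken without it, a choice made after the values were seen. Among the other 8 genes, Myh1 had 32.0% of mRNA reads in treated and 39.3% in untreated muscle, and Myh2 had 26.0% and 22.4%. Myh8 had 21.0% in treated and 20.6% in untreated muscle on that base, with odds of 1.02 (0.992 to 1.06) whose interval holds 1. Myh3, similar within the whole family, had 6.73% in treated and 5.17% in untreated muscle on that base, with odds of 1.32 (1.25 to 1.40). Myh13 had 9.34% in treated and 10.99% in untreated muscle. The slow and cardiac genes still had the larger shares in treated mRNA, Myh7 with 2.12% against 0.443%, Myh6 with 2.32% against 0.802% and Myh7b with 0.393% against 0.228% in untreated mRNA.

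In footprints the same shares differed much less between the conditions. Myh4 held 33.0% of family footprints in treated muscle (32.8 to 33.1) and 28.3% in untreated muscle (28.2 to 28.3), from 177555 and 311391 reads. Myh1 held 18.98% in treated and 21.9% in untreated muscle, from 102186 and 241803 reads, so both genes differed in the same direction as in mRNA. Myh2 held 14.1% and 14.9% in treated and untreated muscle, and Myh8 held 14.9% and 15.7%. Myh13 held 6.75% and 7.01%, and Myh3 held 6.28% and 6.01%, in treated and untreated muscle. Myh6 held 2.96% and 2.81%, Myh7 2.11% and 2.35% and Myh7b 0.902% and 1.01%, again in treated and untreated muscle. The higher mRNA share of Myh7 and Myh6 in treated muscle had no counterpart of that size in footprints.

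The ratios between all 36 pairs of members give the same picture without any scaling. In mRNA 24 of the pairs differed by at least 1.5-fold between treated and untreated muscle with an interval that excluded 1, by up to 5.84-fold for Myh1 against Myh7. In footprints 0 of the 36 pairs did, and the largest difference was 1.35-fold, for Myh4 against Myh1. Of the 24 pairs past that limit in mRNA, 15 had a footprint value on the same side and 9 on the other side of no difference. The pairs share members and are not independent. No share over pairs of all listed genes was taken, so whether these counts are unusual was not tested. By read count the order was Myh4, Myh1, Myh2, Myh8, Myh13, Myh3, Myh6, Myh7 and Myh7b in both mRNA libraries, and in both footprint libraries it differed only in that Myh8 stood before Myh2.

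The next comparison set each gene's TMM-scaled reads in treated muscle against untreated muscle. A gene was called when it differed by at least 1.5-fold with an interval excluding 1 and had at least 50 reads. In mRNA 3 of the 9 members were called higher (Myh4, Myh6 and Myh7) and 0 lower, while over all genes 31.8% were called higher and 24.8% lower. The median log2 ratio of the members was 0.15, beside 0.06 for all genes. The general level moved with the scaling, and the authors' constants gave 11.0% of all genes higher and 54.5% lower, with an all-gene median of -0.82. Myh7 was 4.07-fold higher in treated mRNA (3.36 to 4.98), and Myh6 2.47-fold (2.14 to 2.86). Myh7 was called higher under all 7 scalings, at 2.21-fold or more, and Myh6 under 6 of them. Myh4 had an mRNA ratio of 1.53 with TMM (1.498 to 1.55), was called under 2 of the 7, and lay below 1 with listed totals (0.970) and with the authors' constants (0.828).

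Myh1 had an mRNA ratio of 0.694 (0.680 to 0.709) and Myh13 of 0.724 (0.696 to 0.753). Both missed the 1.5-fold limit with TMM but were called lower under 4 of the 7 scalings. Myh2 had a ratio of 0.989 (0.962 to 1.02), Myh8 of 0.869 (0.844 to 0.894), Myh3 of 1.11 (1.05 to 1.17) and Myh7b of 1.47 (1.12 to 1.96). The members with 1000 or more reads in each library spanned 1.14 log2 units in mRNA, against 2.55 for all 9.

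**Figure D2:**
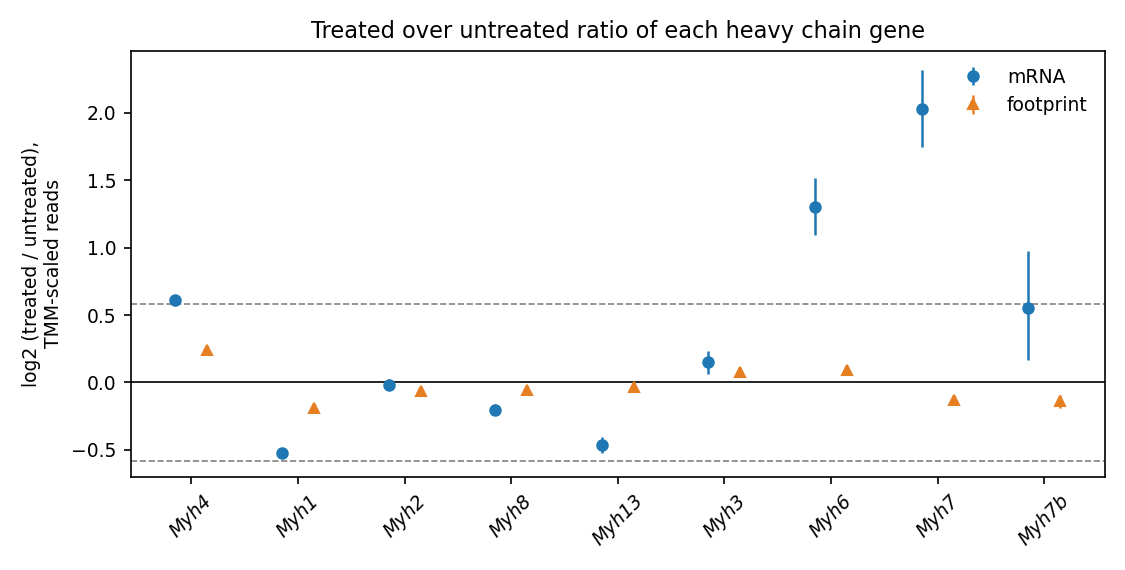
Log2 ratio of treated over untreated TMM-scaled reads for each heavy chain gene, in mRNA (circles) and footprints (triangles), with 95% counting intervals and dashed lines at 1.5-fold. The mRNA values run from -0.53 for Myh1 to 2.03 for Myh7, and the 9 footprint values lie between -0.19 and 0.24.

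In footprints 0 of the 9 members were called higher and 0 lower, against 19.9% and 26.2% of all genes. This count was 0 under each of the 7 scalings, where 11.4% to 23.4% of all genes were higher and 23.0% to 36.5% lower. Myh4 had the highest footprint ratio at 1.18 (1.17 to 1.19) and Myh1 the lowest at 0.875 (0.868 to 0.881). The slow gene Myh7 had a footprint ratio of 0.911 (0.891 to 0.931), from 11379 treated and 25854 untreated reads. Myh6 had 15958 treated and 30980 untreated footprints, a ratio of 1.07 (1.05 to 1.09), and Myh7b had 4858 and 11088, a ratio of 0.907 (0.877 to 0.938). The embryonic Myh3 had 33820 treated and 66294 untreated footprints, a ratio of 1.06 (1.04 to 1.07). For the neonatal Myh8 these were 80493 and 173168 reads and a ratio of 0.962 (0.954 to 0.970). Myh2 had a footprint ratio of 0.956 (0.947 to 0.964), and that of Myh13 was -0.04 on the log2 scale, with an interval of the ratio of 0.963 to 0.987. Each interval is narrow since footprints were many, and the members' footprint ratios spanned 0.43 log2 units.

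Footprints per mRNA is the footprint ratio over the mRNA ratio. It was called lower in treated muscle for 3 of the 9 members and called higher for 0. Over all genes 31.9% were called lower and 26.0% higher. Myh7 was 4.45-fold lower (3.67 to 5.40), Myh6 2.31-fold lower (1.997 to 2.67) and Myh7b 1.61-fold lower (1.22 to 2.11). Myh7 and Myh6 kept this call under all 7 scalings and Myh7b under 3 of them. With 5 instead of 0.5 added to each count Myh7b was not called (1.49-fold lower), while Myh6 and Myh7 were. These are the 3 members with the fewest untreated mRNA reads. Myh1 and Myh13 had ratios of 1.26 (1.23 to 1.29) and 1.35 (1.29 to 1.40), and were called higher under 4 of the 7 scalings. For Myh4 the ratio was 0.774 (0.759 to 0.789).

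Within a condition, footprints per mRNA read were set against the median listed gene, which removes the depth of the libraries. In treated muscle 8 of the 9 members lay above the median gene, and in untreated muscle all 9 did. In treated muscle Myh4 was at 0.985 (0.980 to 0.991), Myh1 at 1.52 (1.51 to 1.53), Myh7 at 2.56 (2.49 to 2.63), Myh6 at 3.27 (3.19 to 3.35) and Myh7b at 5.88 (5.57 to 6.22). In untreated muscle the values went from 1.18 times the median gene for Myh1 (1.16 to 1.21) and 1.25 for Myh4 (1.23 to 1.27) to 7.42 for Myh6 (6.42 to 8.54), 9.35 for Myh7b (7.10 to 12.1) and 11.2 for Myh7 (9.22 to 13.5). Myh7 thereby ranked 2 among the 1000 genes in untreated muscle, Myh7b ranked 5 and Myh6 ranked 8. Over all 1000 genes, 63 in treated and 53 in untreated muscle lay above 3 times the median.

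**Figure D3:**
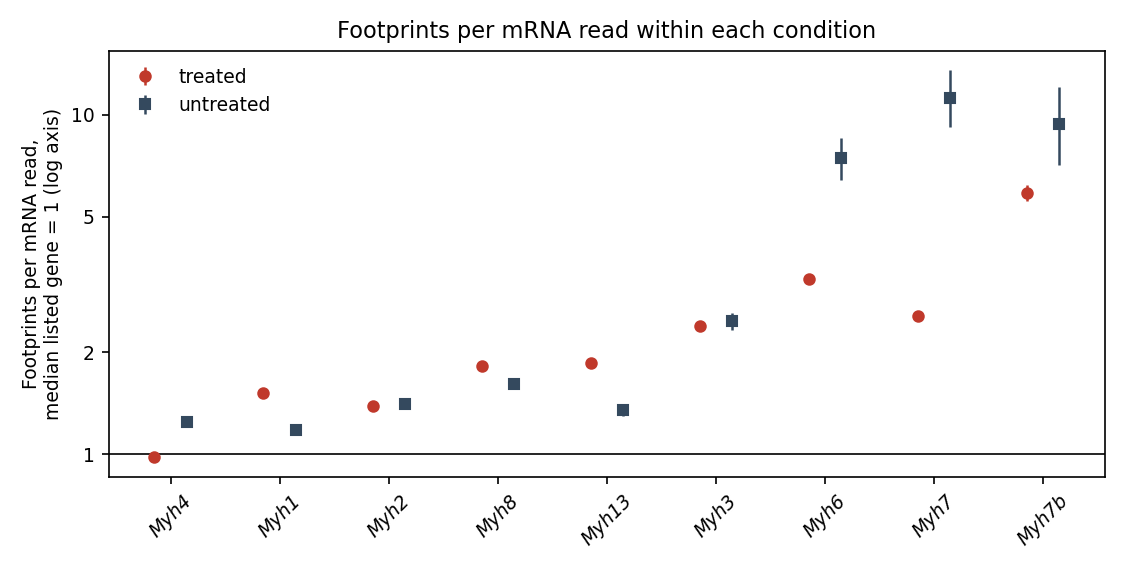
Footprints per mRNA read of each heavy chain gene relative to the median listed gene, on a log axis, in treated (circles) and untreated muscle (squares) with 95% counting intervals. The genes are ordered by untreated mRNA reads, and the values are highest for the 3 genes at the right, up to 11.2 for Myh7 in untreated muscle.

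The 4 members with the fewest mRNA reads had the most footprints per mRNA read in both conditions. The mRNA count is the denominator of this ratio, and the part of low mRNA counts in it was not tested. The embryonic Myh3 was at 2.39 times the median gene in treated and 2.46 in untreated muscle, between the fast genes and the slow and cardiac ones. Footprints were spread more evenly over the family than mRNA reads. The most and the least abundant member, Myh4 and Myh7b, differed 36.5-fold in footprints and 218-fold in mRNA reads of treated muscle. In untreated muscle they differed 28.1-fold in footprints and 210-fold in mRNA reads. Myh6 had footprints equal to 8.99% of those of Myh4 in treated muscle, while its mRNA reads were 2.71% of those of Myh4. Footprints are short fragments, and how many of the reads of either kind match several members was not tested.

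The other contractile genes were then set beside the heavy chains, using lists of genes known to mark fast, slow and developing fibres. Over all genes 31.8% were called higher and 24.8% lower in treated mRNA. Of the 10 listed of 11 fast fibre genes, 4 were called higher and 0 lower, with a median log2 ratio of 0.44. They were Atp2a1, the fast calcium pump, at 2.11-fold (2.04 to 2.18), Actn3, a fast-fibre Z-disc protein, at 2.03-fold (1.89 to 2.18), Mybpc2, the fast myosin-binding protein C, at 1.91-fold (1.77 to 2.06) and Myoz1, a Z-disc protein, at 1.58-fold (1.37 to 1.84). With the authors' constants 0 of the 10 were called higher and 4 lower, beside 11.0% and 54.5% of all genes. The direction of this list thus depended on the scaling. In footprints 2 of the 10 were called higher and 3 lower, beside 19.9% and 26.2% of all genes. Pvalb, the parvalbumin gene for a calcium buffer of fast fibres, was 2.75-fold higher (2.69 to 2.80) and Tnni2, the fast troponin I, 1.86-fold (1.84 to 1.89). Mylpf, the fast regulatory light chain that binds the heavy chain neck, was 1.86-fold lower in footprints (1.82 to 1.91), Mybpc2 1.76-fold (1.69 to 1.83) and Actn3 1.56-fold (1.51 to 1.61). Mybpc2 and Actn3 were thus called higher in treated mRNA and lower in treated footprints.

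Of 11 slow fibre partner genes 6 were in the table, and each of the 5 with enough mRNA reads was lower in treated mRNA under all 7 scalings. Under these scalings 24.8% (TMM) to 54.5% (authors' constants) of all genes were called lower in mRNA. The rows end at 14 untreated mRNA reads, and at the depth of the untreated library the treated reads of Tnnt1, Casq2, Tpm3 and Myom3 would lie below that. These 4 genes are thus in the table through the untreated library, where they were high, and the count describes the listed genes and not the list. Tnnt1, the slow troponin T, had 19 reads in the deep treated mRNA library and 37 in the shallow untreated one, which after scaling made it 42.0-fold lower (23.5 to 77.3). Casq2, the slow and cardiac calsequestrin, had 101 treated and 103 untreated mRNA reads and was 22.0-fold lower (16.5 to 29.2). Mybpc1, the slow myosin-binding protein C, had 9857 treated and 966 untreated mRNA reads and was 2.11-fold lower (1.98 to 2.26). Tnnt1 and Mybpc1 were also lower in footprints, by 14.3-fold (9.25 to 23.2) and 2.58-fold (2.48 to 2.68), where Myh7 had its ratio of 0.911. In footprints 4 of 6 slow fibre genes were called lower and 0 higher, under all 7 scalings. Over all genes 26.2% were called lower and 19.9% higher with TMM. The share called lower ran from 23.0% to 36.5% over the 7 scalings. Those called lower include Tnnt1, Casq2 and Myom3. Tnnc1, with 15 treated and 18 untreated mRNA reads, is also in the table through the untreated library. The footprint count thus likewise describes the listed genes and not the list. Tpm3, a slow tropomyosin, was 4.76-fold lower in mRNA (2.74 to 7.90) and had a footprint ratio of 0.857 (0.751 to 0.976).

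**Figure D4:**
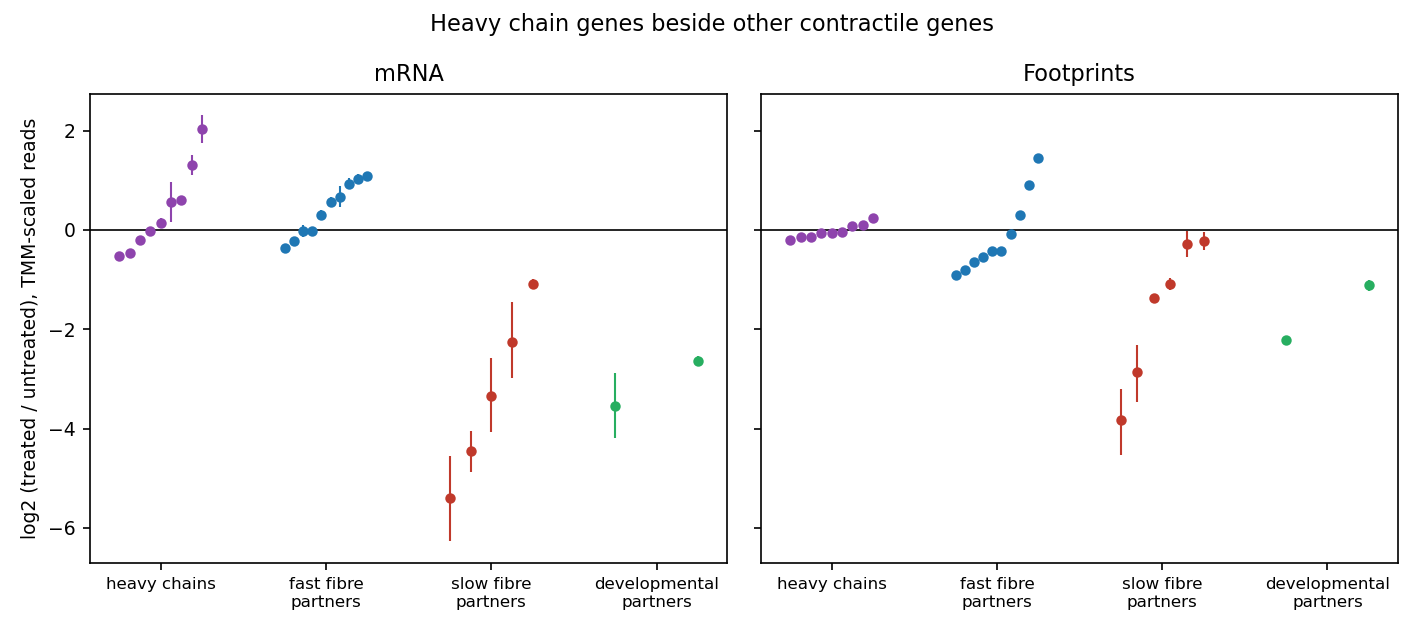
Log2 ratio of treated over untreated TMM-scaled reads in mRNA (left) and footprints (right) for the 9 heavy chain genes and for fast, slow and developmental fibre genes with at least 50 reads, with 95% counting intervals. The listed slow and developmental genes with enough reads lie below 0 in mRNA, down to -5.39 for Tnnt1. Of these, Tnnt1, Casq2, Tpm3, Myom3 and Myl4 are in the table through the untreated library, where they were high. The heavy chains run from -0.53 to 2.03.

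Out of 12 developmental partner genes 2 were in the table, and both were lower in treated muscle in both assays under all 7 scalings. Over these scalings 24.8% to 54.5% of all genes were called lower in mRNA and 23.0% to 36.5% in footprints. They were Myl4, the embryonic and atrial light chain, and Actc1, cardiac alpha-actin of developing fibres. Myl4 was 11.7-fold lower in treated mRNA (7.36 to 18.3) and 2.17-fold lower in footprints (2.003 to 2.36). Actc1 was 6.23-fold lower in mRNA (5.80 to 6.68) and 4.64-fold lower in footprints (4.49 to 4.80). Myl4, with 59 treated and 32 untreated mRNA reads, is likewise in the table through the untreated library, and 2 genes do not describe the list. Myh3 and Myh8 were called in neither assay with TMM. In mRNA, however, Myh3 was called lower under 1 of the 7 scalings, the authors' constants, and Myh8 under 3 of them. The difference between these genes and the heavy chains was not tested, as each rests on single libraries.

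Of the 12 listed of 16 thick filament and M-band genes, 4 were called higher and 4 lower in treated mRNA. In footprints 5 were called higher and 5 lower. Over all genes 31.8% were called higher and 24.8% lower in mRNA, and 19.9% and 26.2% in footprints. With the authors' constants 3 of the 12 were called higher and 7 lower in mRNA, and 3 were called higher and 6 lower in footprints. The shares of all genes under these constants were 11.0% higher and 54.5% lower in mRNA. In footprints they were 11.4% and 36.5%. Ttn was 4.82-fold higher in mRNA (4.73 to 4.91) and 2.62-fold in footprints (2.59 to 2.64). The myosin light chain kinases Mylk2 and Mylk4, which phosphorylate the regulatory light chain, were 3.81-fold (2.84 to 5.23) and 4.22-fold (3.12 to 5.87) higher in mRNA. In footprints they were 3.79-fold (3.55 to 4.06) and 3.16-fold (2.98 to 3.35) higher. Myom3, an M-band protein, was 10.1-fold lower in mRNA (5.97 to 16.8) and 7.28-fold in footprints (4.96 to 11.1). Myom3 and Myl4 are among the genes called lower in both assays, and both are in the table through the untreated library. The lower counts thus describe the listed genes and not the list.

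Of the 9 listed of 12 genes for myosin folding and turnover, 2 were called higher and 1 lower in treated mRNA. In footprints 3 were called higher and 2 lower. The shares of all genes in each assay are those given above. With the authors' constants 1 of the 9 was called higher and 5 lower in mRNA, and 2 were called higher and 4 lower in footprints. Under these constants 11.0% of all genes were higher and 54.5% lower in mRNA, and 11.4% and 36.5% in footprints. Trim63, the ubiquitin ligase MuRF1 that marks heavy chains for breakdown, was 7.35-fold higher in mRNA (4.58 to 12.6) and 10.3-fold in footprints (9.26 to 11.4). Its relative Trim54 was 2.08-fold (1.23 to 3.82) and 2.44-fold (2.16 to 2.76) higher. These mRNA values rest on 2695 treated and 17 untreated reads for Trim63. For Trim54 the mRNA reads were 627 and 14, the latter being the lowest untreated mRNA count listed. Unc45b, the chaperone that folds the myosin head, had an mRNA ratio of 1.14 (0.876 to 1.52) and was 1.53-fold higher in footprints (1.42 to 1.65). Hsp90aa1, a chaperone that works with it, was 1.61-fold lower in mRNA (1.11 to 2.26), and Hsp90ab1, the other cytosolic form, was 1.503-fold lower in footprints (1.42 to 1.59). Cct4, a subunit of the chaperonin that folds actin and tubulin, was 1.64-fold lower in footprints (1.37 to 1.97). Myh9, the nonmuscle heavy chain and the single listed one of 4 nonsarcomeric genes, was 1.62-fold lower in mRNA (1.23 to 2.10), with a footprint ratio of 1.45 (1.38 to 1.52).

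The listed genes most like each member were found by the distance between log2 levels centred over the 4 libraries. Nearest to Myh4 were Gmpr, Iars and Idh3g, at distances of 0.15 to 0.18 log2 units. Nearest to Myh1 were Hadh, Got2 and Phb, nearest to Myh2 were Cs, Uqcrc2 and Ndufs4, nearest to Myh8 were Cacng1, Pacsin3 and Ndufs6, and nearest to Myh13 were Acadl, Ctsd and Ik, all within 0.17. For these 5 members 56 to 95 other genes lay within 0.5, so the likeness singles out no gene. Myh3 had 15 such genes, led by Psmc5, Sdhd and Psap, and Myh6 had 2, Flii and Dcn, with Sparcl1 next at 0.61. Myh7 and Myh7b had 0 within 0.5. The nearest to Myh7 were Dcn, Sparcl1 and Mmp2, at 0.72 to 0.89, and those of Myh7b were Actg1, Flii and Actb, at 0.52 to 0.78. The likeness is over 4 libraries only and describes these libraries.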

How the data were processed

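The deposited table gives whole-number read counts for 1000 genes, sorted by untreated mRNA count, per the file headers and values. The normalized values that the authors deposited equal the count times 1 constant per library and were read as CPM from the values. They served as 1 alternative scaling. Per the labels' protocols, cycloheximide was in the lysis buffer and mRNA libraries were stranded. The submitters' processing notes name mm9, Trimmomatic, STAR and edgeR, but not how they were used.

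Counts were scaled with TMM (edgeR 4.0.16, R 4.3.3) over all 4 libraries. Treated over untreated ratios have exact conditional binomial 95% intervals. Footprints per mRNA and odds used 0.5 added to each count and normal intervals on the log scale. Python 3.11.15 with scipy 1.17.1 ran the code, which was tested on simulated data. DESeq2 1.42.0 size factors were 1 of the other scalings. All 9 members matched RefSeq (GRCm38.p6), as did 996 of the 1000 identifiers. No test was possible with 1 library per group.

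The members, gene lists and rules were chosen with earlier results of these data known. Named genes were all members, up to 4 called genes per list and direction, first those whose interval lay farthest from 1, and the 3 nearest genes by pattern. Tnnc1, Fn1, Lum and Sparc were named in addition, outside this rule. Reads carry no molecular identifiers.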

Additional observations from a re-analysis of the deposited data

How the results depend on the processing

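The scaling between libraries moved several results. The summed family mRNA ratio, 1.07 with TMM over all libraries, was 1.03 with TMM within each pair, 1.05 with DESeq2 size factors, 0.883 with totals without the 20 most abundant genes, 0.812 with upper quartiles, 0.680 with listed totals and 0.581 with the authors' constants. The summed footprint ratio was 1.02, 1.07, 0.933, 0.983 and 0.838 under the last 5 of these. The summed footprints per mRNA were 0.983, 0.967, 1.21, 1.15, 1.45 and 1.44 under all 6. Members called lower in mRNA, 0 with TMM, numbered 2 without the 20 most abundant genes, 3 with upper quartiles, 4 with listed totals and 5 with the authors' constants, which left 1 member called higher. Members called higher in footprints per mRNA, 0 with TMM, numbered 2, 2, 3 and 3 under these 4, beside 37.4%, 34.8%, 44.6% and 44.6% of all genes. Over all genes, the share called higher and lower in mRNA was 23.9% and 32.7%, 20.6% and 37.0%, 14.9% and 46.6%, and 11.0% and 54.5%. The Myh4 mRNA ratio reversed to 0.970 with listed totals and 0.828 with the authors' constants. The odds of Myh4 within the family, 1.79 in mRNA, were 0.709 when Myh1, Myh2, Myh4, Myh8 and Myh13 were counted as 1 group, and 0.992 in footprints; the grouped genes replace Myh4 there. The cause of the other differences was not tested. With 5 added to each count Myh7b in footprints per mRNA was not called, and 33.0% of all genes were called higher and 25.3% lower. At a 2-fold threshold Myh4 in mRNA and Myh7b in footprints per mRNA were not called. Without Myh4 in the family sum, a choice made after seeing the data, Myh1 and Myh13 were not called lower and Myh7b was called higher (odds 1.71, 1.31 to 2.24). The 105 and 54 untreated mRNA reads of Myh7 and Myh7b limit their precision. Levels per coding length, protein similarity and the median of genes of like protein length were not run, as protein sequences were not used here. No paired analysis was possible because each group has 1 library, and for the same reason no replicate could be left out.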
